A study of Mus musculus with 23 samples.

Results

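Mouse genes whose symbol is Zfp followed by a number encode zinc finger proteins, most of them DNA-binding proteins with tandem zinc fingers. Their open chromatin was followed here in 3T3-L1 cells, an established mouse preadipocyte line that can be turned into fat cells. The members were all genes that the authors had assigned to an ATAC-seq peak and whose symbol starts with Zfp and a digit, without Zfp423, Zfp467 and Zfp521. Where a gene had several peaks on a day, the peak with the highest mean normalised count was used. The rule gave 304 genes of the 11533 genes with an authors' peak. On days -2, -1 and 0 there were 297, 277 and 283 of them, and 267 were present on all 3 days.

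Cells were transfected with 50 nM siRNA against Kdm5c, a demethylase of histone H3 lysine 4, or with 50 nM non-targeting siRNA, called scramble here, on day -3. Nuclei were collected 24, 48 and 72 hours later, on days -2, -1 and 0 of the differentiation calendar, and their open DNA was tagged by a transposase and sequenced (ATAC-seq). The 6 groups were Kdm5c siRNA and scramble on each of the 3 days, with 4 libraries each, except Kdm5c siRNA on day 0, which has 3 (numbered 1, 2 and 4). All groups shared the cell line and the transfection, and each is a population of 1 cell line. The labels do not say that replicates came from separate cultures, so p-values measure the spread between these libraries, which may be technical. An siRNA acts on RNA, so accessibility at Kdm5c itself does not show whether the knockdown worked.

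Many numbered Zfp proteins carry a KRAB domain next to their zinc fingers. KRAB domains recruit the corepressor Trim28, which brings in the H3K9 methyltransferase Setdb1 and silences retroelements and imprinted loci. Such genes arose by tandem duplication and often lie side by side in clusters, while others, among them Zfp143 and Zfp36, stand alone and have unrelated roles. Here 3 or more numbered Zfp genes with neighbouring gene spans at most 250 kb apart were called a cluster, 2 a pair and 1 a single gene. By that rule 159 members lay in 29 clusters, 35 in pairs and 110 alone.

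The RefSeq promoter table (GRCm38.p6) holds the 250 bases before and the 50 bases after a gene's start and had an entry for 249 of the 304 members. The 6 promoters below belong to genes on which the results turn: each was called more open on day 0 than on day -2 in both arms on the counts as deposited, and together they show a single gene, 3 clustered genes, a paired gene and a gene of the Zfp36 family. Peak widths differ between days, and with log peak width as an offset, which compares counts per length of peak, Zfp971 and Zfp36l1 lost the call in both arms and Zfp606 lost it with Kdm5c siRNA. The authors' peak lay over each of these starts on all 3 days. Zfp788 is at chr7:41633281-41633580 on the plus strand, Zfp120 at chr2:150136629-150136928 on the minus strand, Zfp971 at chr2:178023034-178023333 on the plus strand, Zfp677 at chr17:21383498-21383797 on the plus strand, Zfp606 at chr7:12478055-12478354 on the plus strand and Zfp36l1 at chr12:80112964-80113263 on the minus strand. Each is written from 5' to 3' on the gene's strand, and capitals mark matches to the motifs named in the next paragraph.
Zfp788: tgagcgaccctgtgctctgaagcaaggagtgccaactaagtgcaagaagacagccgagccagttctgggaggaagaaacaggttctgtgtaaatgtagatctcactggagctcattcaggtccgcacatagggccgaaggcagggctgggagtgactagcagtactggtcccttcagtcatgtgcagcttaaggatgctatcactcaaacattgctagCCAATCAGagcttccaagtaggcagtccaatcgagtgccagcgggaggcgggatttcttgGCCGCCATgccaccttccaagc
Zfp120: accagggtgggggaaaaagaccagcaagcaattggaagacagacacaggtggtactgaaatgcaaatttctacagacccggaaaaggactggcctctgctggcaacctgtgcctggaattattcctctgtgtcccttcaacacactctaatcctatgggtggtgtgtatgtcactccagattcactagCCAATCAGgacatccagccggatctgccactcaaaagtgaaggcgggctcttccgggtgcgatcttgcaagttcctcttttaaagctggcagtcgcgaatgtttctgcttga
Zfp971: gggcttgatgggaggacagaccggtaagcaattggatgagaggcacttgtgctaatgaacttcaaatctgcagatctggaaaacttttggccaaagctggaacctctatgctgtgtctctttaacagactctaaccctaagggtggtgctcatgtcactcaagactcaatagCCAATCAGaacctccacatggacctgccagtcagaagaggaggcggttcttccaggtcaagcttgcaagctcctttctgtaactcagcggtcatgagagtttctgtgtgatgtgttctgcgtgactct
Zfp677: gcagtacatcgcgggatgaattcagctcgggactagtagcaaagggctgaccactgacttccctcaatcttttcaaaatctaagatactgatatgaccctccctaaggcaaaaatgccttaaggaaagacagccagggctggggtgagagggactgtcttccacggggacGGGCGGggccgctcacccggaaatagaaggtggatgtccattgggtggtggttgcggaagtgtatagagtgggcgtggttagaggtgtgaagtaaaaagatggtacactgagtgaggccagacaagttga
Zfp606: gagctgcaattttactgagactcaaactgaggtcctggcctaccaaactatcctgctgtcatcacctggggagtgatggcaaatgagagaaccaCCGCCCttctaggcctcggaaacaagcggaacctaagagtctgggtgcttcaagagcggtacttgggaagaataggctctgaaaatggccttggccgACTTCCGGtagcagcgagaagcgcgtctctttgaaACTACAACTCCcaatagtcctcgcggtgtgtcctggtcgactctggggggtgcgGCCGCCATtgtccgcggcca
Zfp36l1: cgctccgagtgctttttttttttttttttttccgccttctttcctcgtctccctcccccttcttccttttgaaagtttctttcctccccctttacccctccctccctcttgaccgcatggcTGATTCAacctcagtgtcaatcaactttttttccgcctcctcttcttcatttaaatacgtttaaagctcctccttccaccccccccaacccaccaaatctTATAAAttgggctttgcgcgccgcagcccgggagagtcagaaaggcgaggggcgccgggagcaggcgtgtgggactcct

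The capitals in Zfp788, Zfp120 and Zfp971 mark a CCAAT box of the same 8 letters, 32, 62 and 78 bases before the start, and Zfp788 also has a YY1 match on the opposite strand. Zfp606 has a ZNF143 site, an ETS match, a YY1 match and a GC box, Zfp677 a GC box, and Zfp36l1 a TATA box and an AP-1 match. The motifs were searched on both strands, and a stretch could count for more than 1 motif. They were the CCAAT box of NF-Y (CCAATCNG), the ETS family (CCGGAAGT), YY1 (ATGGCGGC), the GC box of the SP and KLF families (GGGCGG), the TATA box (TATAAA), CRE (TGACGTCA), the E2F family (TTTCCCGC), AP-1 (TGANTCA) and the E-box (CACGTG), and by name the longer sites of ZNF143, NRF1, RFX and ZBTB33. A match describes letters in this window and is not a measured binding site.

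Promoters of the members were poorer in G and C than those of other genes with a peak. Their median GC content was 55%, against 61.7% for the 8627 genes that had both an authors' peak and an entry and 52.7% for all 27025 promoters. The low value came with the clustered and paired genes, which had medians of 53.7% and 54.7%, while single genes had 61.7%. The GC box was found in 45.0% of member promoters, against 67.5% of genes with a peak and 36.3% of all promoters. By class it was found in 38.3% of clustered, 36% of paired and 59.0% of single members. The CCAAT box stood the other way, in 17.3% of members, against 9.90% of genes with a peak and 6.91% of all promoters. The ZNF143 site was found in 5.62% of members, 2.42% of genes with a peak and 1.12% of all promoters. A CRE match was found in 3.21% of members, close to the 3.44% of genes with a peak, and the 8 members with one comprised 7 clustered genes and no single gene. An NRF1 match was found in 4.42% of members, 2.202% of genes with a peak and 0.988% of all promoters. A start of another gene on the opposite strand within 1 kb upstream was found for 10.8% of members and 15.5% of genes with a peak. These shares describe the promoters and were not tested.

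Most of these peaks lay at the gene's own start. On days -2, -1 and 0 the peak covered the RefSeq start of 219 of 244, 204 of 231 and 212 of 235 members that had an entry, which is 89.8%, 88.3% and 90.2%. Exceptions with named roles were Zfp36, whose peak lay 1827, 1848 and 1885 bases from the start on the 3 days, Zfp217 at about 5 kb and Zfp638 at over 46 kb. The RefSeq gene table listed 394 coding numbered Zfp genes, of which 296 were measured on at least 1 day. Detection was 158 of 202 in clusters (78.2%), 32 of 51 in pairs (62.7%) and 106 of 141 single genes (75.2%). The chromosome 4 cluster from Zfp992 to Zfp933 stood apart, with 3 of 12 genes measured. Near-identical copies can share reads, and how the authors handled such reads is unknown here, so values of tightly clustered genes are uncertain in that respect.

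The members were about as open as other promoters. Levels were normalised within each day, so they can be compared between genes of a day and not between days. Their median level on days -2, -1 and 0 was 84.1, 64.3 and 77.8 normalised counts per kb of peak, against 86.7, 65.6 and 79.0 for all genes with a peak. Clustered members had 81.6, 58.8 and 70.3 and single members 85.3, 68.9 and 86.7 normalised counts per kb. Peaks of clustered genes were narrower, with medians of 694, 617 and 691 bases against 802, 708 and 811 for single genes. The range was wide. Members on all 3 days were ordered by their level averaged over the days. The highest average belonged to Zfp386, with 246, 202 and 237 normalised counts per kb on days -2, -1 and 0. On day 0 alone Zfp788 was higher, at 256. Zfp788, Zfp446, Zfp120 and Zfp654 followed, with library ranges that overlapped those of their neighbours in this order on day -2. The lowest average was that of the clustered gene Zfp931 with 22.96, 14.6 and 12.9, preceded by Zfp772, Zfp125, Zfp984 and Zfp935. On day -2 alone Zfp125 was lower, at 21.8. The members not present on all days were mostly weak peaks, with a median of 11.9 raw counts per library, against 54.1 for members present on all 3 days. An exception was Zfp532, present on day -2 alone, with a mean of 101 raw counts.

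Nuclear counts per library ranged from 781309 to 3345583, and mitochondrial peaks took 56.4% to 93.2% of all counts. The mitochondrial share was lower with Kdm5c siRNA than with scramble on each day, with means on days -2, -1 and 0 of 63.8%, 90.0% and 84.1% with the Kdm5c siRNA and 73.5%, 92.3% and 88.8% with scramble. Of 9 preadipocyte or fibroblast markers, 7, 6 and 6 had a gene peak on days -2, -1 and 0, on day -2 with Pdgfrb, Col1a1, Prrx1 and Twist1 among them, while none of 4 adipocyte, 3 blood and 2 epithelial markers had one. Of 2 endothelial markers Cdh5 had one, on day -2 alone.

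The first question was whether Kdm5c siRNA changed the openness of these genes. No member passed the test on any day. In a bulk sample, fewer cells with an open site and less signal per cell cannot be told apart. Of 287, 265 and 280 members tested on days -2, -1 and 0 with edgeR's quasi-likelihood test, 0 had a Benjamini-Hochberg adjusted p under 0.05, where 0.00404%, 0% and 0.00352% of all tested peaks passed. DESeq2 called 0 as well. An unadjusted p under 0.05 was found for 16, 8 and 14 members by edgeR (5.57%, 3.02% and 5.00%, against 4.63%, 5.37% and 6% of all peaks). DESeq2 gave 8 of 297, 7 of 277 and 11 of 283 members, and its share of all peaks is not given. By edgeR the share of such members was a little above that of all peaks on day -2 and below it on days -1 and 0. On day -2 the 16 found by edgeR were split into 4 higher and 12 lower with Kdm5c siRNA, which is 1.39% and 4.18% of the members. That stood against 2.98% and 1.35% of the 10137 genes with a peak, and 2.33% higher and 2.31% lower among all peaks. Of the 12 lower members 9 were clustered, where 151 of the 287 tested members are. Without Kdm5c siRNA replicate 3 the day -2 count was 31, and without replicate 1 of the same group it was 7. The share of all peaks in these refits is not given. The mitochondrial shares given above differed between the arms, and their part in these values was not tested. Scaling by total counts alone, mitochondrial counts included, gave member medians of 0.40, 0.38 and 0.55 on days -2, -1 and 0. It gave 5 calls on day -2, Zfp113, Zfp341 and Zfp598 among them. Under that scaling the median and the share called over all peaks are not given. These values are thus not read as particular to the members.

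Fold changes of the members were small. The median log2 fold change, Kdm5c siRNA over scramble, was -0.014, -0.0071 and -0.018 on days -2, -1 and 0, against 0.026, -0.00031 and -0.011 for all genes with a peak. The change lay within 0.5 on the log2 scale for 275 of 287, 254 of 265 and 262 of 280 members, with a median standard error of 0.20, 0.22 and 0.22. Changes of 0.5 could go uncalled at this depth, and so could larger ones at weak peaks, such as Zfp783 on day 0 at -1.77. Clustered members had medians of -0.022, -0.0070 and -0.031 and single members of -0.0055, -0.019 and 0.027. The clustered minus single difference was thus -0.017, 0.012 and -0.059.

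**Figure D1:**
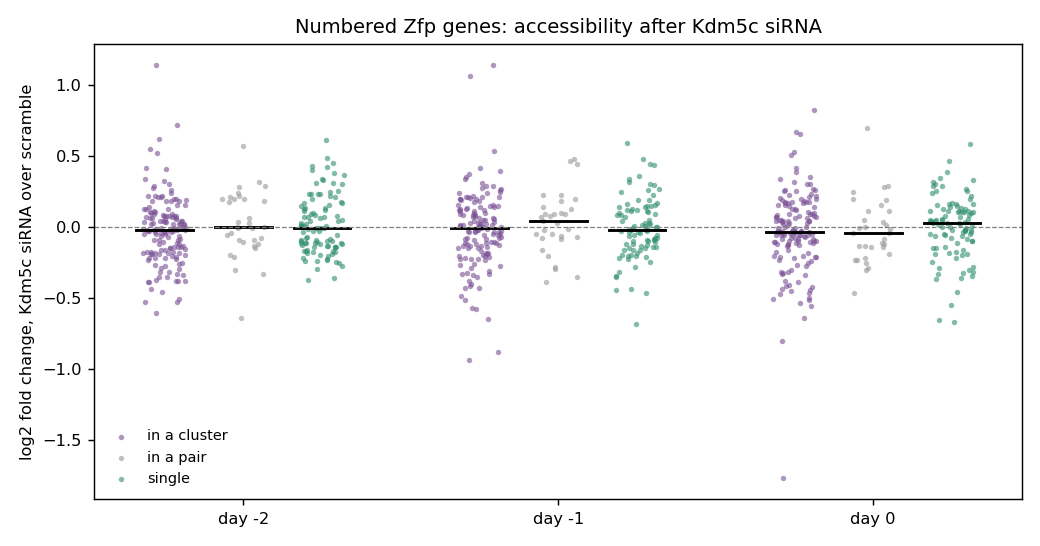
Log2 fold change of each tested member, Kdm5c siRNA over scramble (vertical axis), on each day, with members in a cluster, in a pair and single set side by side; points are genes and black bars are medians. All 9 medians lie close to 0, and the lowest point is Zfp783 on day 0 at -1.77.

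Libraries of the arms did not overlap at 10, 10 and 19 members on days -2, -1 and 0. That is 3.48%, 3.77% and 6.79% of the members, against 2.86%, 3.28% and 6.22% of all peaks, so the members stood near the background. By direction, 6, 4 and 7 members were higher, where all peaks had 1.52%, 1.58% and 3.11%. The lower ones numbered 4, 6 and 12, where all peaks had 1.34%, 1.7% and 3.11%. On day -2 the arms were apart at Zfp598, which encodes a ubiquitin ligase that marks collided ribosomes. It had 96.7, 77.7, 86.7 and 82.6 normalised counts in Kdm5c siRNA libraries, against 59.4, 56.4, 62.2 and 70.8 in scramble libraries. Every Kdm5c siRNA library lay above every scramble library, and the log2 fold change of 0.45 ± 0.18 (SE, n = 4 each) had an adjusted p of 0.98 in edgeR. The others of the 5 smallest p on day -2 were Zfp442 at -0.51, Zfp935 at -0.64 and Zfp113 at 0.43, besides Zfp598 and Zfp729a. The other 5 higher ones were Zfp113, Zfp341, Zfp81, Zfp940 and Zfp407, at 0.23 to 1.14. Zfp407, which in mouse adipocytes promotes transcription of PPARγ target genes, had 130.2, 128, 139.9 and 138 normalised counts in Kdm5c siRNA libraries, against 114, 122, 120.4 and 101 in scramble libraries. Its arms were apart by a small margin, with a log2 fold change of 0.23 ± 0.15 (SE, n = 4 each) and an adjusted p of 0.98 in edgeR. Among the 4 lower ones (Zfp729a, Zfp273, Zfp606 and Zfp384), the clustered gene Zfp729a had 40.9, 40.0, 58.9 and 45.5 normalised counts in Kdm5c siRNA libraries, against 75.8, 59.0, 71.0 and 63.5 in scramble libraries. Its highest Kdm5c siRNA library fell just short of the lowest scramble library. The log2 fold change was -0.53 ± 0.21 (SE, n = 4 each, edgeR adjusted p = 0.98), with 0.04 on day -1 and 0.09 on day 0.

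On day -1 the smallest p belonged to the clustered gene Zfp472, with 20.03, 19.7, 30.3 and 24.6 normalised counts in Kdm5c siRNA libraries, against 8.63, 8.38, 12.6 and 13.9 in scramble libraries. The arms did not overlap, at low counts. The log2 fold change was 1.14 ± 0.37 (SE, n = 4 each, edgeR adjusted p = 0.855), with 0.02 on day -2 and -0.16 on day 0. The next was Zfp688, with 21.0, 19.7, 13.1 and 13.02 normalised counts in Kdm5c siRNA libraries, against 28.8, 27.0, 51.8 and 17.1 in scramble libraries. Here the arms overlapped, and scramble replicate 3 stood above the rest. Zfp322a, Zfp712 and Zfp235 followed, at -0.44, -0.35 and -0.58. The arms were also apart at Zfp59, Zfp960 and Zfp341 on the higher side and at Zfp235, Zfp933, Zfp950, Zfp109, Zfp839 and Zfp345 on the lower side, with adjusted p-values of 0.88 to 0.96 in edgeR.

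On day 0 the largest difference was at Zfp783, a clustered gene whose peak was 151 bases wide that day. It had 8.04, 9.30 and 1.65 normalised counts in Kdm5c siRNA libraries, against 27.0, 17.6, 11.1 and 24.1 in scramble libraries. All 3 Kdm5c siRNA libraries lay below all 4 scramble libraries in a weak peak. The log2 fold change of -1.77 ± 0.56 (SE, n = 3 and 4) had an adjusted p of 0.68 in edgeR, beside -0.01 on day -2 and 0.29 on day -1. Zfp455, also clustered, had 36.2, 55.8 and 39.0 normalised counts in Kdm5c siRNA libraries, against 24.7, 25.3, 28.3 and 20.1 in scramble libraries. The arms did not overlap, at 0.82 ± 0.28 (SE, n = 3 and 4, edgeR adjusted p = 0.71). The arms were apart on more than 1 day at 3 members: Zfp606, lower on days -2 and 0, Zfp341, higher on days -2 and -1, and Zfp81, higher on day -2 and lower on day 0, a set singled out after its values were seen. On day 0 Zfp606 had 72.4, 93.0 and 58.2 normalised counts in Kdm5c siRNA libraries, against 100.04, 95.7, 112 and 97.9 in scramble libraries. Kdm5c siRNA replicate 2 came close to the lowest scramble library. The log2 fold changes of Zfp606 on days -2, -1 and 0 were -0.33, -0.16 and -0.46, with adjusted p-values of 0.98, 0.97 and 0.71 in edgeR. Others with small p were Zfp414 at 0.53 and Zfp2 at 0.67. Among the 7 higher members with arms apart, the smallest p after Zfp455 belonged to Zfp414, Zfp512, Zfp994, Zfp213 and Zfp956, and among the 12 lower ones, after Zfp783 and Zfp606, to Zfp329, Zfp160, Zfp661 and Zfp566.

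The siRNA effect did not differ detectably between days. For the 225 members whose peaks could be matched on all 3 days, edgeR's interaction test called 0 for day -1 minus day -2, for day 0 minus day -2 and for day 0 minus day -1, as it did for all 13674 matched peaks (0%), and DESeq2 called 0 members too. The members with an unadjusted p under 0.05 in edgeR numbered 11, 12 and 7, where 673, 876 and 712 of the 13674 matched peaks had one.

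No list of members with known roles, chosen with earlier results of these data known, had a member called for the siRNA. All 3 CCCH proteins that carry the symbol were measured on each day, namely Zfp36, Zfp36l1 and Zfp36l2, which bind AU-rich elements and speed mRNA decay. Of 9 KRAB proteins that silence imprinted loci or retroelements, 5 were measured, including the imprint protector Zfp445 and the retroviral repressor Zfp809. All 6 members with roles in fat cell formation or fat metabolism were measured, among them Zfp30, Zfp217 and Zfp516, the last an activator of the brown fat programme in mouse. Of 9 widely expressed activators and cofactors 7, 6 and 6 were measured, among them Zfp143, which binds the ZNF143 site, of 6 RNA, ribosome and spindle proteins 5, and of 4 pluripotency factors 2, 1 and 1. As medians of the log2 fold change on days -2, -1 and 0, the CCCH list had -0.16, 0.019 and 0.12, the silencing list 0.044, 0.062 and 0.039, and the fat list 0.016, 0.13 and -0.067. The activators had 0.099, -0.014 and 0.0069, the RNA list -0.020, -0.083 and 0.15, and the pluripotency factors 0.25, -0.44 and 0.11. These lists are short, and none was tested against the other members. The call was edgeR's, and the unadjusted count was 1 of 4 RNA proteins on day -2 (Zfp598) and 1 of 1 pluripotency factors on day -1 (Zfp322a), and 0 in the others. In the KRAB corepressor pathway, which is not made of Zfp genes, 12, 12 and 13 of 20 genes had a peak, Setdb1 and Cbx5 among them, and 0 were called, with an unadjusted p under 0.05 for 0, 0 and 1. As medians of the log2 fold change, this pathway had 0.082, -0.0032 and -0.0013. The related Zbtb, Zscan and Zkscan families had 0 calls on each day as well, among 26, 29 and 26 Zbtb genes, 7 Zscan genes on each day and 8, 7 and 7 Zkscan genes tested.

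The second question was how openness changed over the days before differentiation. Members that passed the test on day 0 against day -2 were mostly more open. In 225 matched members, 30 were called higher and 3 lower with Kdm5c siRNA, and 36 higher and 1 lower with scramble, by edgeR with an adjusted p under 0.05. The higher calls were 13.3% and 16% of the members, against 7.26% and 9.16% of all matched peaks and 6.82% and 9.56% of the 6822 matched genes with a peak. The lower calls were 1.33% and 0.444% of the members, against 7.69% and 11.5% of all matched peaks and 3.17% and 2.64% of the genes with a peak. The median log2 fold change of the members was 0.18 with Kdm5c siRNA and 0.20 with scramble, and that of all genes with a peak was 0.035 and 0.085. The arms used separate libraries. They shared 15 of the members called higher, which is 50.0% of those called with Kdm5c siRNA and 41.7% of those called with scramble, and shared none called lower. All genes with a peak shared 244 higher calls, which is 52.5% and 37.4%, so the members' sharing was near that of other genes. Values above 0 in both arms were found for 134 members and below 0 in both arms for 34.

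These day differences depend on how the libraries are scaled and on which libraries are used. All fold changes are relative to the bulk of peaks: with total counts alone, mitochondrial counts included, the median of all matched peaks moved to -0.96 with Kdm5c siRNA and -1.05 with scramble and that of the members to -0.78 and -0.87, with 0 members called higher. Days differed in mitochondrial share, which averaged 68.6% on day -2, 91.2% on day -1 and 86.8% on day 0, and in nuclear depth, so the day, the depth and the library handling cannot be told apart. Without Kdm5c siRNA day -2 replicate 2 the count called higher with Kdm5c siRNA was 17, and without Kdm5c siRNA day 0 replicate 1 it was 19. Without scramble day -2 replicate 4 the count with scramble was 21. The share of all matched peaks called in these refits is not given. Whether the members lost more calls than other peaks thus cannot be told. Peak sets were called for each day, and the width of a member's peak on day 0 was 0.981 times that on day -2 in the median, against 0.942 for all genes with a peak. With log peak width as an offset, the medians were 0.21 with Kdm5c siRNA and 0.23 with scramble for the members and 0.13 and 0.18 for all genes with a peak, and 31 and 36 members were called higher. That is 13.8% and 16% of the members, against 7.55% and 13.4% of the genes with a peak and 6.60% and 10.7% of all matched peaks, so with scramble the members were then near other genes. The gap between the medians of the members and of other genes was smaller with the offset.

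**Figure D2:**
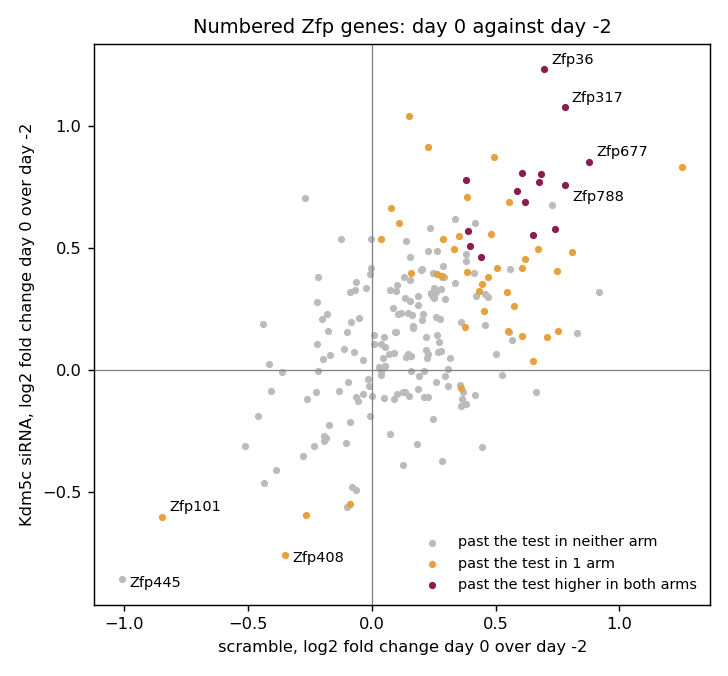
Log2 fold change, day 0 over day -2, with Kdm5c siRNA (vertical axis) against scramble (horizontal axis), each point 1 of 225 matched members. The 15 members called higher in both arms lie in the upper right, with Zfp36 and Zfp317 the highest in the Kdm5c siRNA arm, and Zfp445, Zfp101 and Zfp408 lie lower left.

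The 15 shared genes were Zfp120, Zfp317, Zfp36, Zfp36l1, Zfp444, Zfp606, Zfp619, Zfp677, Zfp78, Zfp787, Zfp788, Zfp820, Zfp937, Zfp945 and Zfp971. They comprised 8 clustered, 2 paired and 5 single genes, with log2 fold changes of 0.46 to 1.23 with Kdm5c siRNA and 0.38 to 0.88 with scramble. In 13 of them every day 0 library lay above every day -2 library in each arm. The 15 were picked by calls on these same libraries, so this is no separate support. Of all 225 matched members, 54 with Kdm5c siRNA and 40 with scramble had every day 0 library above every day -2 library. The reverse held for 12 and 2, and the share of all matched peaks is not given. In 8 of the 15 (Zfp120, Zfp317, Zfp444, Zfp677, Zfp78, Zfp787, Zfp788 and Zfp945) the call held in both arms with log peak width as an offset. Zfp971, at 0.81 with Kdm5c siRNA and 0.68 with scramble, had 0.26 and 0.14 with the offset.

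The gene with the smallest p in the scramble arm was Zfp788, whose promoter is printed above. With Kdm5c siRNA it had 185, 183, 216 and 178.5 normalised counts on day -2, 278.5, 336, 324 and 331 on day -1, then 288, 342 and 337 on day 0. In scramble cells the counts were 181, 191, 225 and 196 on day -2, 270.0, 272, 296.5 and 307 on day -1, then 354, 339, 295 and 381 on day 0. All libraries of days -1 and 0 lay above all libraries of day -2, in both arms. The log2 fold change, day 0 over day -2, was 0.76 ± 0.12 with Kdm5c siRNA (SE, n = 3 and 4, edgeR adjusted p = 6.94e-07). It was 0.78 ± 0.11 with scramble (SE, n = 4 each, edgeR adjusted p = 4.36e-08). Its peak width hardly differed between days, and with log width as an offset the values were 0.79 and 0.81.

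Zfp317, a single gene with a promoter GC content of 44.7%, was the strongest after Zfp36 in the Kdm5c siRNA arm. With Kdm5c siRNA it had 45.0, 59.1, 58.3 and 73.7 normalised counts on day -2, 80.7, 66.0, 90.2 and 117 on day -1, then 101, 138 and 131 on day 0. With scramble it had 55.3, 85.5, 73.7 and 83.2 on day -2, 84.6, 115, 139 and 121 on day -1, then 137, 139, 102 and 136 on day 0. Day 0 was above day -2 in every library of each arm, with scramble replicate 3 the lowest of its day. Its log2 fold change was 1.08 ± 0.17 with Kdm5c siRNA and 0.78 ± 0.16 with scramble (SE, n = 3 and 4 and n = 4 each), with edgeR adjusted p-values of 4.06e-07 and 7.14e-05.

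Zfp677 lies in the chromosome 17 cluster that runs to Zfp946. With Kdm5c siRNA it had 79.1, 57.2, 89.9 and 85.9 normalised counts on day -2, 126, 93.1, 142 and 109 on day -1, then 137, 129.6 and 152 on day 0. In scramble cells they were 83.9, 88.5, 87.4 and 78.0 on day -2, 88.4, 115, 97.6 and 120 on day -1, then 152, 144.5, 144 and 180.0 on day 0. The day 0 libraries of each arm stood clear of the day -2 libraries, with day -1 between them in the mean. Zfp677 had a log2 fold change of 0.85 ± 0.15 with Kdm5c siRNA and 0.88 ± 0.14 with scramble (SE, n = 3 and 4 and n = 4 each), with edgeR adjusted p-values of 8.47e-06 and 7.87e-07.

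Zfp120, in the chromosome 2 cluster that runs to Zfp345, differed more in the Kdm5c siRNA arm. With Kdm5c siRNA it had 74.1, 86.7, 84.8 and 106 normalised counts on day -2, 125, 137, 135 and 140.2 on day -1, then 134, 173 and 143.5 on day 0. Scramble libraries had 111, 93.6, 109 and 129 on day -2, 139, 132, 112 and 179 on day -1, then 139, 154, 127 and 159 on day 0. With scramble the days overlapped, since the lowest day 0 library was just below the highest day -2 library. The log2 fold change was 0.78 ± 0.14 with Kdm5c siRNA and 0.38 ± 0.14 with scramble (SE, n = 3 and 4 and n = 4 each), with edgeR adjusted p-values of 2.23e-05 and 0.0338. The difference between the arms was not called by the interaction test.

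Zfp945, a single gene, had 69.1, 44.0, 90.5 and 64.2 normalised counts on day -2 with Kdm5c siRNA, 72.9, 82.5, 87.5 and 127 on day -1, then 105, 119 and 124 on day 0. With scramble it had 79.9, 75.3, 80.5 and 70.2 on day -2, 108, 111, 121 and 85.3 on day -1, then 132, 104, 114 and 114 on day 0. Day 0 exceeded day -2 in every library of both arms, at 0.81 ± 0.17 with Kdm5c siRNA and 0.61 ± 0.16 with scramble (SE, n = 3 and 4 and n = 4 each), with edgeR adjusted p-values of 0.000152 and 0.00277.

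Both RNA decay factors Zfp36 and Zfp36l1 were among the 15, and the third of the family, Zfp36l2, was not, at 0.08 with Kdm5c siRNA and -0.11 with scramble. Zfp36l1 had 45.0, 50.9, 43.1 and 45.3 normalised counts on day -2 with Kdm5c siRNA, 88.5, 72.0, 73.2 and 92.8 on day -1, then 67.9, 84.2 and 71.2 on day 0. With scramble it had 57.3, 61.0, 50.1 and 37.7 on day -2, 84.6, 65.4, 61.5 and 63.3 on day -1, then 101, 72.9, 74.96 and 61.8 on day 0. Day 0 lay above day -2 in both arms, by a narrow margin with scramble. Zfp36l1 had a log2 fold change of 0.69 ± 0.19 with Kdm5c siRNA and 0.62 ± 0.19 with scramble (SE, n = 3 and 4 and n = 4 each), with edgeR adjusted p-values of 0.00738 and 0.00964. Under the width offset it had 0.50 and 0.43 and was called in neither arm, with edgeR adjusted p-values of 0.0894 and 0.098.

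Zfp36 had 23.02, 37.7, 37.4 and 31.2 normalised counts on day -2 with Kdm5c siRNA, 42.9, 30.0, 45.7 and 37.9 on day -1, then 88.7, 78.5 and 68.3 on day 0. With scramble it had 51.2, 40.7, 41.8 and 35.7 on day -2, 43.6, 42.4, 48.8 and 41.3 on day -1, then 59.2, 79.8, 68.6 and 64.6 on day 0. Only day 0 stood apart. Zfp36 had a log2 fold change of 1.23 ± 0.22 with Kdm5c siRNA and 0.70 ± 0.21 with scramble (SE, n = 3 and 4 and n = 4 each), with edgeR adjusted p-values of 7.03e-06 and 0.00878. As given above, the Zfp36 peak did not cover the gene's start on any day. The peak called on day 0 was wider, 893 bases against 546 on day -2, and with log width as an offset the values were 0.53 with Kdm5c siRNA and -0.012 with scramble and neither passed the test.

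**Figure D3:**
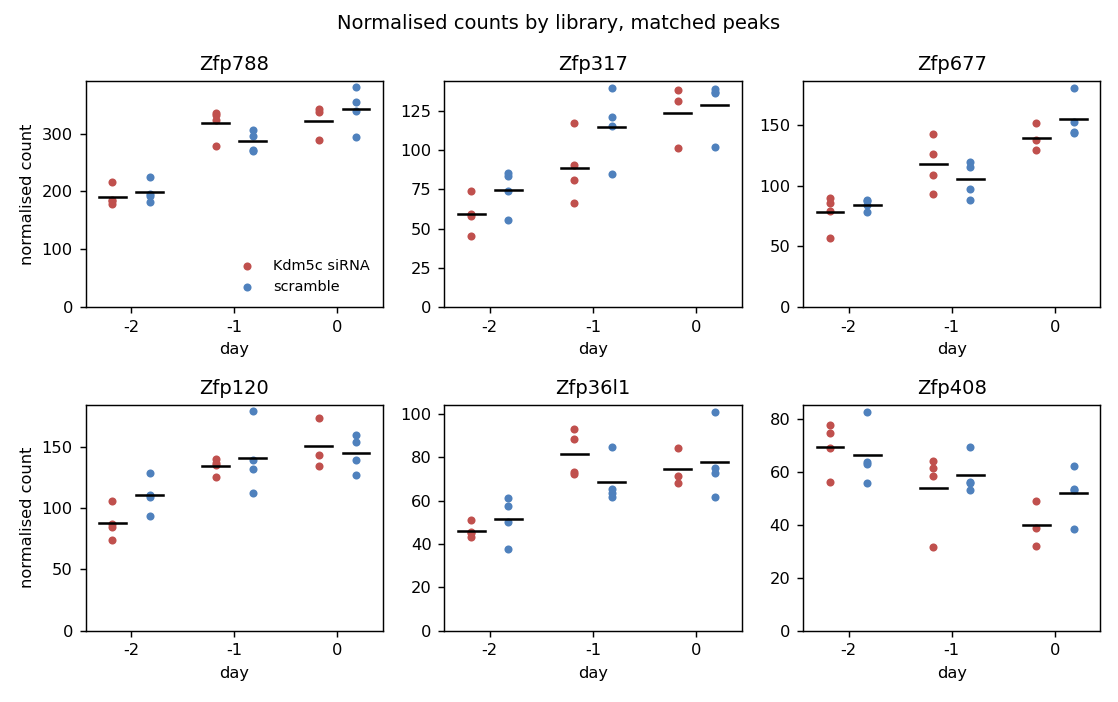
Normalised counts of matched peaks (vertical axes, from 0) by library on days -2, -1 and 0 for 6 members, with Kdm5c siRNA left of scramble on each day; points are libraries and black bars are means. Zfp788, Zfp317, Zfp677, Zfp120 and Zfp36l1 are higher on day 0 than on day -2, and Zfp408 is lower.

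Further members named by the size of their change passed the test in 1 arm. With Kdm5c siRNA these were Zfp935 at 1.04 ± 0.27, Zfp457 at 0.92 ± 0.26 and Zfp953 at 0.87 ± 0.29, which had 0.15, 0.23 and 0.49 with scramble. With scramble they were Zfp773 at 1.26 ± 0.31 and Zfp874b at 0.81 ± 0.25, which had 0.83 and 0.48 with Kdm5c siRNA (SE). The interaction test called no difference between the arms' day effects at any member (0 of 225). Of the 5, Zfp773 alone kept its call with log width as an offset. All 5 are weak peaks, with raw means of 22.5 to 37.2 counts per library on day -2.

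Only 4 members were called lower on day 0, each in 1 arm. Zfp408, a single gene, had 69.1, 77.9, 56.4 and 74.6 normalised counts on day -2 with Kdm5c siRNA, 58.6, 31.5, 64.0 and 61.6 on day -1, then 38.8, 32.2 and 49.1 on day 0. With scramble it had 82.9, 56.0, 63.0 and 63.7 on day -2, 69.7, 53.3, 56.0 and 56.4 on day -1, then 38.3, 62.4, 53.4 and 53.6 on day 0. The days were apart with Kdm5c siRNA and overlapped with scramble. Zfp408 had a log2 fold change of -0.76 ± 0.21 with Kdm5c siRNA and -0.35 ± 0.20 with scramble (SE, n = 3 and 4 and n = 4 each), with edgeR adjusted p-values of 0.00727 and 0.22. Its peak was 660 bases wide on day 0 and 941 on day -2, and with log width as an offset the value with Kdm5c siRNA was -0.25, no longer called. Zfp101, in the chromosome 17 cluster from Zfp871 to Zfp414, had 11.6, 26.6, 30.5 and 9.62 normalised counts on day 0 with scramble and 32.8, 28.5, 36.5 and 42.9 on day -2. The days overlapped through scramble replicate 3 of day 0 alone. Its log2 fold change was -0.85 ± 0.29 with scramble and -0.60 ± 0.30 with Kdm5c siRNA, with edgeR adjusted p-values of 0.0283 and 0.162. Its peak was 398 bases wide on day 0 and 598 on day -2, and with log width as an offset it had -0.26 with scramble, no longer called, and -0.017 with Kdm5c siRNA. The others were Zfp335os, a gene antisense to Zfp335, at -0.60, and Zfp775 at -0.55, both with Kdm5c siRNA. Under the width offset Zfp335os was still called, at -0.67, and Zfp775 turned to 0.041. The counting is not stated to use strand, and open chromatin carries none, so Zfp335os and Zfp335 cannot be told apart.

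Day -1 gave fewer calls. Against day -2, 14 members were called higher and 3 lower with Kdm5c siRNA, and 6 higher and 2 lower with scramble, by edgeR. The higher calls were 6.22% and 2.67% of the members, against 3.56% and 3.17% of all matched peaks, and the lower calls 1.33% and 0.889%, against 2.8% and 2.57%. Without Kdm5c siRNA day -2 replicate 1 or 2 the count with Kdm5c siRNA was 7, and without its day -1 replicate 4 it was 9. The share of all matched peaks in these refits is not given either. Zfp157, Zfp317 and Zfp788 were called higher in both arms. The largest in the Kdm5c siRNA arm were Zfp36l1, Zfp457, Zfp788, Zfp369 and Zfp937 at 0.63 to 0.83, and in the scramble arm Zfp820, Zfp712, Zfp317, Zfp975 and Zfp788 at 0.52 to 0.84. The lower ones were the single genes Zfp609, Zfp839 and Zfp276 with Kdm5c siRNA, at -1.25, -1.04 and -0.81, and Zfp395 and Zfp687 with scramble, at -0.74 and -0.41. Peaks on day -1 were narrower, 0.904 times the day -2 width in the median of the members, and with log width as an offset 34 members were called higher with Kdm5c siRNA and 26 with scramble. That is 15.1% and 11.6% of the members, against 9.29% and 10.3% of the genes with a peak and 8.29% and 8.40% of all matched peaks, so with scramble the share was close to that of other genes. Under the offset Zfp395 turned to 0.24 and Zfp820, whose peak was 980 bases wide on day -1 and 543 on day -2, to -0.012, both with scramble. Zfp975 and Zfp687 with scramble and Zfp457, Zfp839 and Zfp276 with Kdm5c siRNA were no longer called, at 0.16, -0.033, 0.68, -0.13 and -0.18 in that order.

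The members called higher on day 0 were found more often among promoters poor in G and C. A promoter entry existed for 189 of the 225 matched members. Of 95 members under 55% GC, 20% were called higher with Kdm5c siRNA and 26.3% with scramble, where all 988 genes with a peak in that range had 10.0% and 12.4%. From 55% to 65% the members had 13.1% and 9.84% (n = 61), against 6.72% and 8.96% of 2233 genes, and at 65% and over 6.06% in each arm (n = 33), against 5.38% and 8.91% of 2156 genes. With log width as an offset the range under 55% had 20% and 18.9% of members, against 9.62% and 10.9% of all genes with a peak. From 55% to 65% the offset gave members 8.197% and 13.1%, against 7.30% and 12.5%, and at 65% and over 6.06% and 15.2%, against 7.10% and 15.2%. With scramble the difference between GC ranges was then smaller among members and ran the other way among all genes with a peak. The median log2 fold change of members under 55% was 0.34 with Kdm5c siRNA and 0.27 with scramble, against 0.11 and 0.10 for all genes with a peak. Of the 15 shared genes 11 were under 55%. These GC ranges were chosen after seeing the data, and the shares were not tested.

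**Figure D4:**
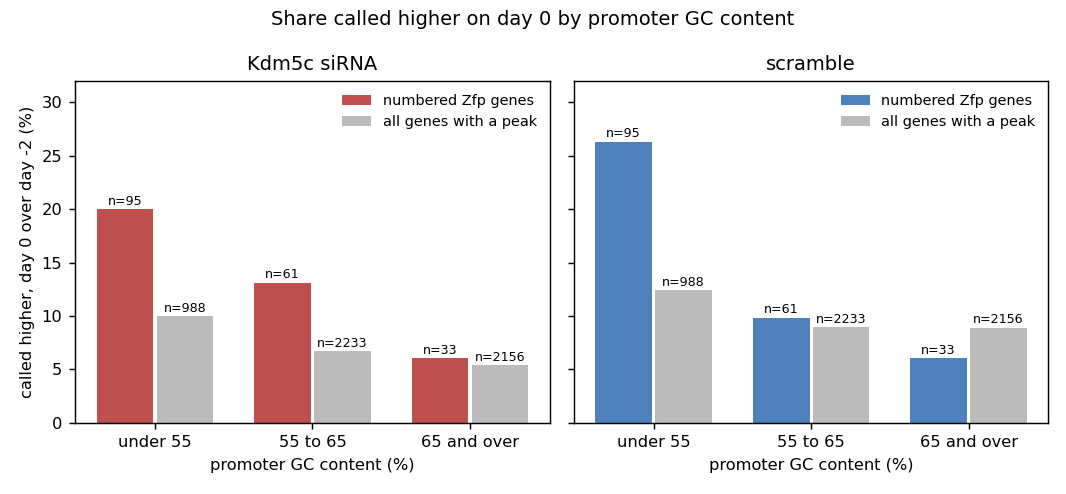
Share of matched genes called higher on day 0 over day -2 (vertical axis, percent) by promoter GC content, for numbered Zfp genes (coloured bars) and all genes with a peak (grey bars), with Kdm5c siRNA on the left and scramble on the right; n is the number of genes. Under 55% the members reach 20% and 26.3%, against 10.0% and 12.4% of all genes with a peak.

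The order of clustered and single members depended on how peak width was treated. Clustered members had a median log2 fold change, day 0 over day -2, of 0.26 with Kdm5c siRNA and 0.25 with scramble (n = 119), and single members 0.11 and 0.15 (n = 81). With log width as an offset, clustered members had 0.18 and 0.22 and single members 0.23 and 0.24, so the order turned round. With a reciprocal overlap of 80%, clustered members had 0.21 and 0.12 (n = 48) and single members 0.12 and 0.093 (n = 38), in the same order as without the offset. The difference between the classes was not tested. Called higher were 16 and 21 clustered members (13.4% and 17.6%) and 10 and 11 single members (12.3% and 13.6%). Within the range under 55% GC, single members had medians of 0.36 and 0.33 (n = 18) and clustered members 0.30 and 0.26 (n = 67).

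Medians varied among the 12 clusters with 4 or more matched members, and differences between clusters were not tested. The highest medians in the Kdm5c siRNA arm belonged to the chromosome 2 cluster from Zfp120 to Zfp345, with 0.58 with Kdm5c siRNA and 0.38 with scramble, and all 4 of its members were above 0 in both arms. The chromosome 7 cluster from Zfp787 to Zfp28, which includes Zfp444 and Zfp78, had 0.46 and 0.39, and 3 of its 6 members were called higher in each arm. The cluster with the most genes, on chromosome 13 from Zfp712 to Zfp273, had 18 of 23 genes measured. Its 15 matched members had medians of 0.40 with Kdm5c siRNA and 0.23 with scramble, 13 and 11 of them above 0. The chromosome 17 cluster from Zfp677 to Zfp946 had 0.31 and 0.30, with 10 and 9 of 11 members above 0. The lowest medians belonged to the other chromosome 17 cluster, from Zfp871 to Zfp414, with -0.32 and -0.22 and 0 of 7 members called higher. With log width as an offset that cluster had 0.12 and 0.14, above 0.

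**Figure D5:**
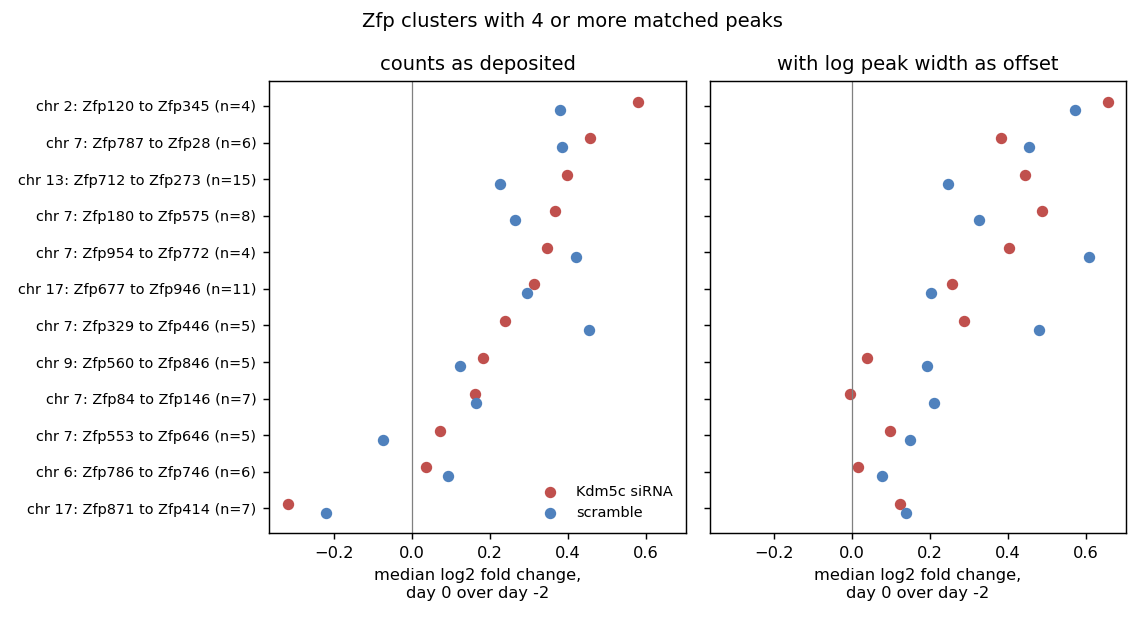
Median log2 fold change, day 0 over day -2 (horizontal axes), of the 12 clusters with 4 or more matched peaks, on counts as deposited (left) and with log peak width as an offset (right); red points are Kdm5c siRNA, blue points scramble, and n is the number of matched members. The chromosome 17 cluster from Zfp871 to Zfp414 is at -0.32 and -0.22 on the left and at 0.12 and 0.14 on the right.

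Among the role lists, the CCCH list had 2 of 3 members called higher on day 0 in both arms, as given above, Zfp36l1 and Zfp36, neither of them with the width offset. The Zfp36 peak lay away from the gene's start. No silencing factor was called in either arm (5 tested, by edgeR). The imprint protector Zfp445 was the lowest of all members, at -0.86 with Kdm5c siRNA and -1.01 with scramble, with edgeR adjusted p-values of 0.15 and 0.055. Its peak was 193 bases wide on day 0 and 291 on day -2, and with log width as an offset it had -0.27 and -0.42. No member of the fat list was called (5 tested). Of the activators Zfp91 was called higher with Kdm5c siRNA, at 0.39, with 0.26 and an adjusted p of 0.087 with scramble. Of the RNA list the ribosome assembly factor Zfp622 was called higher with scramble, at 0.38, with 0.18 with Kdm5c siRNA. The pluripotency factor Zfp322a was called higher with Kdm5c siRNA, at 0.55, with 0.35 with scramble. In the corepressor pathway 1 of 9 tested genes was called higher with Kdm5c siRNA and 2 of 9 with scramble, and 0 lower, with medians of 0.0061 and 0.11. Of the Zbtb family 1 and 3 of 20 were called higher, with medians of 0.13 and 0.17.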

How the data were processed

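ATAC-seq was measured in 23 libraries. Raw counts of reads in peaks were deposited by the authors as 1 table a day and were tested here. A second deposited table a day holds the authors' normalised signal (those counts over 1 constant per library) and gave the gene names. The submitters' processing notes list the build GRCm38 with DESeq2 1.24.0, HTSeq 0.9.1, MACS2 2.1.1, Bowtie2 2.2.9 and cutadapt 2.3, without their roles. How duplicates, mitochondrial reads and the transposase offset were treated is unknown here.

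Each day was fitted alone with edgeR 4.0.16 (quasi-likelihood, TMM, filterByExpr, Benjamini-Hochberg over all peaks tested). Day effects and interactions came from 1 fit over 13675 peaks matched 1 to 1 on all 3 days by a reciprocal overlap of 50% (bedtools 2.31.1), of which 13674 were tested. DESeq2 1.42.0 was the second tool. For normalised counts, each count was divided by its library's relative effective size. The F statistic gave the standard errors. Fits were tested on simulated data.

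Members and lists were chosen with earlier results of these data known. Named for the siRNA were the 5 smallest p per day and up to 6 members in each direction whose arms did not overlap. Named for the days were up to 5 called members per direction with the same sign in both arms, and for level the 5 highest and 5 lowest. Members called in both arms and members of role lists were named too. Gene spans, promoters and sequences are RefSeq's (GRCm38.p6). The GC ranges, other cluster gaps for the day effect and the width offset for clusters were added after seeing the data, and the motifs were chosen then too.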

Additional observations from a re-analysis of the deposited data

Results flagged for a closer look

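The 58 groups of 4 libraries behind the values printed library by library were checked for a library far from the other 3, and in 3 of them (5.17%) the gap to the nearest library exceeded Dixon's 95% critical value for the share of the group's range. Chance alone gives about 1 in 20. The highest scramble library of Zfp36l1 on day -1 had 84.6 normalised counts, the lowest scramble library of Zfp317 on day 0 had 102, and the lowest Kdm5c siRNA library of Zfp408 on day -1 had 31.5.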

How the results depend on the processing

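Of the values for single genes, 410 kept their direction and their side of the threshold under the alternatives that used all libraries, 20 lost their call and 3 gained one. With 1 library left out, 924 did and 49 lost their call. Scaling by total counts alone moved every comparison, and the cause was not tested. The siRNA medians became 0.40, 0.38 and 0.55 on days -2, -1 and 0, with 5 members called on day -2. For these siRNA fits the values over all peaks are not given. The interaction medians became -0.072 (day -1 minus day -2), 0.12 (day 0 minus day -2) and 0.21 (day 0 minus day -1). In the same order all matched peaks had -0.097, 0.11 and 0.21. Day 0 over day -2 gave 0 members higher, 147 lower and a median of -0.78 with Kdm5c siRNA, and 0, 186 and -0.87 with scramble. Day -1 over day -2 gave 0, 225 and -1.53 with Kdm5c siRNA, and 0, 224 and -1.44 with scramble. The lower calls on day 0 were 65.3% and 82.7% of the members, against 78.4% and 87.4% of all matched peaks. Genes with a peak had 84.2% and 91.9%. On day -1 the lower calls were 100% and 99.6% of the members, against 98.4% and 97.8% of all matched peaks.

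Under that scaling these genes changed sign. For the siRNA on day -2 they were Zfp273 0.038, Zfp384 0.24 and Zfp606 0.10. On day -1 they were Zfp345 0.11, Zfp712 0.023 and Zfp950 0.063, followed by Zfp160 0.19, Zfp329 0.015, Zfp566 0.16, Zfp606 0.063 and Zfp661 0.062 on day 0. With Kdm5c siRNA they were Zfp369 -0.92, Zfp36l1 -0.76, Zfp457 -0.75, Zfp788 -0.89 and Zfp937 -0.96 on day -1, then Zfp457 -0.0031 and Zfp953 -0.026 on day 0. With scramble they were Zfp317 -0.90, Zfp712 -0.76, Zfp788 -1.003, Zfp820 -0.66 and Zfp975 -0.98 on day -1, then Zfp317 -0.27, Zfp677 -0.21, Zfp788 -0.30 and Zfp874b -0.26 on day 0.

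With log width as an offset, day -1 had 34 members higher, 1 lower and a median of 0.23 with Kdm5c siRNA, and 26, 0 and 0.21 with scramble. Day 0 had 1 lower with Kdm5c siRNA and 2 with scramble, and Zfp395 (0.24, scramble, day -1), Zfp820 (-0.012, scramble, day -1) and Zfp775 (0.041, Kdm5c siRNA, day 0) changed sign. DESeq2 called 2 lower with scramble on day 0. A reciprocal overlap of 80% left 94 members. Day 0 had 10 higher and 1 lower with Kdm5c siRNA, and 7 higher with a median of 0.11 with scramble. The higher calls were 10.6% and 7.45% of the members, against 3.91% and 4.06% of the 4013 peaks matched at 80%. Genes with a peak had 3.78% and 3.02%. Day -1 had 4 higher and 0 lower with Kdm5c siRNA and 1 and 0 with scramble. That is 4.26% and 1.06% higher, against 1.27% and 0.972% of the peaks matched at 80%. The interaction of day 0 minus day -2 had a median of 0.073.

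With each library left out in turn, the siRNA medians ran from -0.080 to -0.0018 on day -2, from -0.024 to 0.018 on day -1 and from -0.047 to 0.015 on day 0. Members called on day 0 ran from 17 to 32 higher and 1 to 3 lower with Kdm5c siRNA and from 21 to 37 and 0 to 2 with scramble, and on day -1 from 7 to 17 and 1 to 4 with Kdm5c siRNA and 0 to 2 lower with scramble. For these counts the share of all matched peaks called in the same refits is not given. The interaction medians ran from -0.0045 to 0.040, -0.019 to 0.039 and -0.043 to 0.021.

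Same-numbered Kdm5c siRNA and scramble libraries shared only a number: over 11 pairs their deviations correlated at -0.041 to 0.151, with 1 over 0.1. With a replicate block, 0 members were called for the siRNA on each day, with medians of -0.025, -0.0027 and -0.032. Of 225 matched members, 32 and 15 were called higher on days 0 and -1 with Kdm5c siRNA and 34 and 6 with scramble. The share of all matched peaks called with this block is not given. Cluster gaps of 100 and 500 kb gave clustered minus single siRNA medians of -0.017 and -0.0078 on day -2, 0.029 and -0.0076 on day -1, then -0.068 and -0.064 on day 0.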

Other observations

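Of the 304 members, 8 are not listed as coding in the RefSeq gene table: 3 are transcribed pseudogenes, 1 is a pseudogene, 3 are long non-coding RNAs and 1, Zfp125, has no entry there. The AP-1 motif (TGANTCA) was found in 2.81% of member promoters, against 4.75% of genes with a peak and 7.88% of all promoters, and the ETS motif (CCGGAAGT) in 10.4%, against 8.01% and 4.04%.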
